A study of Mus musculus with 16 samples.

Results

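Transcripts of macrophages, Langerhans cells and the class II antigen presentation pathway were examined in skin samples of mice in which Gab1 is deleted with a keratin 14 Cre driver. The genes are a named list of 40 symbols, which stand for 39 genes because Emr1 is the older symbol of Adgre1, and every array probe annotated with one of these symbols was taken. Of the 39 genes, 35 had a probe among the 16593 named genes of the array, through 56 of 25697 probes, and none was listed for Epcam, Csf1r, Cd68 and Mpeg1. The mutant group comprised 7 arrays labelled K14-cre; Gab1fl, and the control group 9 arrays labelled as control, all from dorsal skin of 15 day old mice on a C57/BL6;129Ola mixed background. The genotype of the control mice beyond the word control was not given in the sources used here. Gab1 is a docking protein downstream of receptor tyrosine kinases, and the keratin 14 promoter is active in basal keratinocytes, so the Cre is directed at epithelial cells and not at the leukocytes that make most of the transcripts described here. Sorting for surface integrin alpha 6 is mentioned in the series' design, but each array carries only the tissue name dorsal skin, and which material was hybridised is not settled by the sources used here.

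Langerhans cells are the dendritic cells of the epidermis, and they are recognised by langerin, the product of Cd207. Dermal macrophages take up debris and complement-coated particles and carry receptors for immunoglobulin, lipopolysaccharide and haemoglobin. Both kinds of cell, with dermal dendritic cells, load peptides onto MHC class II molecules, whose genes share a promoter element set read by the regulatory factor X complex, the NF-Y complex and the coactivator Ciita. In bulk RNA, fewer cells of a type and less RNA per cell cannot be told apart.

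Each array gave a summarised intensity and a detection p-value per probe, and values below are log2 signals after background correction and quantile normalization. Between 13406 and 14636 probes were detected per array at a detection p below 0.05, which is 52.2% to 57.0%. The 16 arrays fell into 5 sets of nearly interchangeable arrays, called sources here: arrays of a source correlated at 0.994 to 0.996 over 18 pairs, against 0.935 to 0.936 between the mutant sources and 0.961 to 0.986 between control sources. Mutant and control arrays correlated at 0.933 to 0.964 with a median of 0.956, above the median of 0.936 between the mutant sources. The mutant group held 2 sources, of 3 and 4 arrays, and the control group 3 sources of 3 arrays each. Each source was present on both slides. Its arrays were averaged, and it was counted as 1 sample. No label ties arrays to an RNA extract or to an animal, so p-values measure the spread between these sources only. Gab1 itself, the targeted gene, stood at 11.34 and 11.97 in the mutant sources and at 12.69, 12.69 and 12.68 in the control sources, a difference of -1.03 (SE 0.21, limma adjusted p = 0.239). Its 1 probe need not lie in the deleted part of the gene.

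Most of the listed genes gave a signal. Of the 56 probes, 37 were detected on all 16 arrays and 9 on none, and 45 probes of 29 genes passed the filter of detection on at least 7 arrays. For 26 genes a probe was detected on all 16 arrays. No tested probe was left for 6 genes. Itgax (integrin alpha X, CD11c), Itgam (integrin alpha M, CD11b), Ccr2 (the receptor that brings monocytes into tissue), Cybb (the catalytic subunit of the phagocyte oxidase) and Ptprc (CD45, the common leukocyte phosphatase, with 2 probes) were detected on 0 of 16 arrays. A silent probe need not mean an absent transcript. Lyz2, Aif1 and Cd163 each had a probe detected on 0 of 16 arrays and another detected on all 16. Ciita, the master coactivator of class II genes, was detected on 3 of 7 mutant and 2 of 9 control arrays.

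None of the 45 tested member probes differed between mutant and control sources at a limma adjusted p below 0.05, where 0.0552% of all 14504 tested probes did (8 probes). At an unadjusted p below 0.05 there were 3 member probes of 45, where 12.1% of all tested probes passed. Both mutant sources lay above all 3 control sources for 3 member probes, 6.67% of 45, against 15.8% of all tested probes, and below all of them for 0 member probes, against 14.0% of all tested probes. Those 3 probes read Lyz1 (2 probes) and Fcer1g. Taking for each gene its probe of highest mean signal, the 29 member genes had a median difference of 0.08, with 15 above 0. The median over all 10013 tested genes was 0.00.

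The members varied far more between sources of a group than genes at large. Their median SD between sources of a group was 1.02 on the log2 scale, against 0.25 over all tested genes, and 27 of the 29 members lay above the median of all probes. A wide spread was not particular to the members. The median SD was 1.32 for suprabasal keratinocyte, 1.11 for mast cell and 0.89 for T cell genes. It was lower for class I presentation (0.28) and basal keratinocyte genes (0.12). Between arrays of one source the median SD was 0.10 for members and 0.10 for all genes. Mutant source 1 lay above mutant source 2 for 26 of 29 members, against 53.3% of all tested genes. In the control group, source 1 was lowest, source 2 intermediate and source 3 highest for 25 of 29 members (86.2%), against 29.6% of all tested genes. This order was not particular to the members. Among the other lists described below it held for 84.6% of class I presentation, 83.3% of endothelial and 80% of mast cell genes. It held for 0% of T cell, B cell and melanocyte genes. Mutant source 1 lay above all control sources and mutant source 2 below all of them for 7 members (24.1%), against 13.7% of all tested genes. The reverse, with mutant source 1 below and mutant source 2 above, was not counted, so Cd207 and Lgals3 are not among the 7. These shares describe 5 sources and carry no test.

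**Figure D1:**
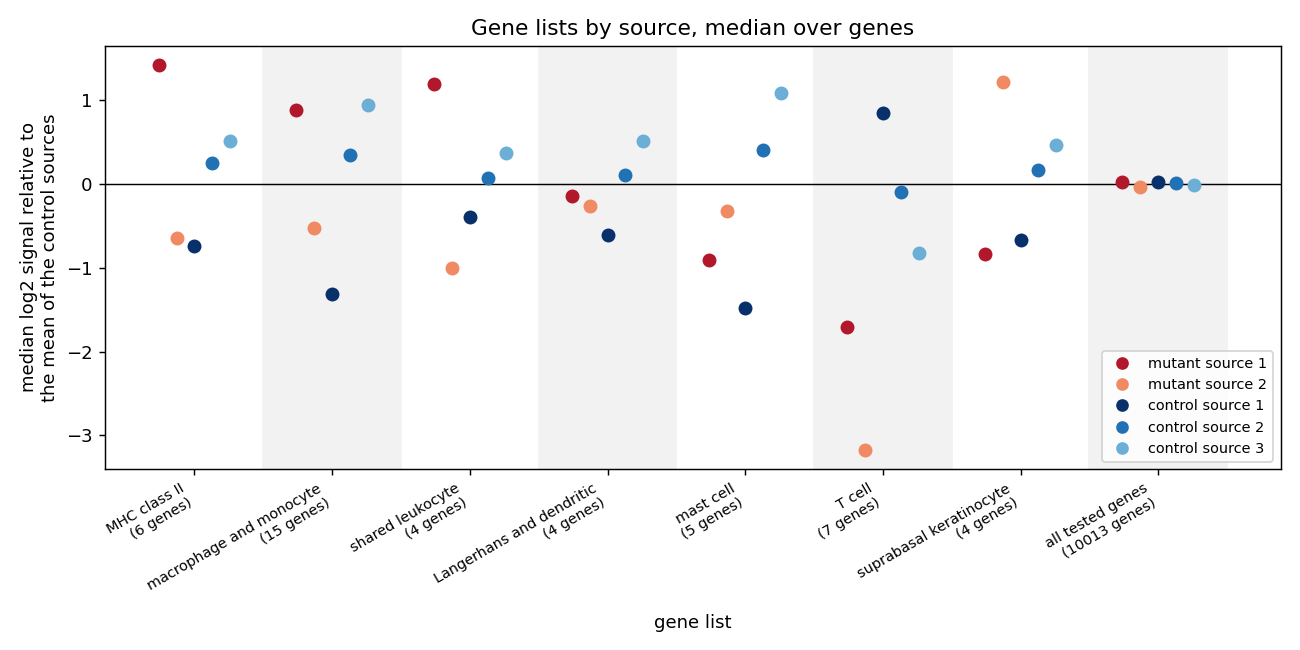
Median over the genes of each list of the log2 signal of a source relative to the mean of the 3 control sources, with the gene lists along the x axis and 1 point per source, mutant sources first. Mutant source 1 stands at 1.41 for MHC class II genes and mutant source 2 at -0.65, with the control sources between -0.74 and 0.51, while all tested genes lie near 0 in every source.

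Class II presentation genes were read by 10 tested probes of 6 genes, and all 6 genes were detected on all 16 arrays. Cd74, the invariant chain that guards the groove of newly made class II molecules, had 14.20 and 12.20 in the mutant sources and 12.01, 13.14 and 13.35 in the control sources. Over single arrays it ran from 12.14 to 14.23 with a median of 12.28 in the mutant, and from 11.97 to 13.39 with a median of 13.17 in the control. H2-Aa, the alpha chain of the I-A molecule, had 11.91 and 9.78 in the mutant sources and 9.84, 10.87 and 11.13 in the control sources. In both genes mutant source 1 was the highest of the 5 sources, and mutant source 2 lay at the low end of the control range or just beneath it.

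H2-Ab1, the beta chain of I-A, had 14.20 and 11.77 in the mutant sources and 12.05, 12.95 and 13.25 in the control sources. Its other 3 probes gave differences of 0.28, 0.35 and 0.48, beside 0.24 for the first, so all 4 probes differed by less than 0.5. H2-Eb1, the beta chain of the I-E molecule, had 13.14 and 11.11 in the mutant sources and 10.72, 11.88 and 12.22 in the control sources. H2-DMa, a chain of the peptide editor H2-DM, had 11.55 and 9.65 in the mutant sources and 9.61, 10.54 and 10.77 in the control sources. Its partner chain H2-DMb1 had 10.81 and 8.71 in the mutant sources and 9.02, 9.55 and 9.47 in the control sources. In each of these 4 genes mutant source 1 was the highest of the 5 sources.

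The class II genes shared one order of the mutant sources. Mutant source 1 exceeded mutant source 2 in 6 of 6 genes, by 1.91 to 2.43 with a median of 2.06. It exceeded every control source in 6 of 6, against 37.8% of all tested genes. Mutant source 2 lay below every control source in 3 of 6 (50%), for H2-Aa, H2-Ab1 and H2-DMb1, against 38.9% of all tested genes. The differences between groups were positive in 6 of 6 genes, between 0.23 for H2-Aa and 0.52 for H2-Eb1 (SE 0.72), with a median of 0.33, and the smallest limma adjusted p was 0.837. On slide 1 alone the median was 0.31, and on slide 2 alone 0.37. The 95% interval for H2-Eb1 ran from -1.27 to 2.31. Without mutant source 1 the median was -0.65, without mutant source 2 it was 1.41, and without control source 1 it was -0.05. Ciita, below the detection filter, had 6.65 and 4.90 in the mutant sources and 5.02, 5.50 and 5.78 in the control sources, again highest in mutant source 1 but close to background.

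**Figure D2:**
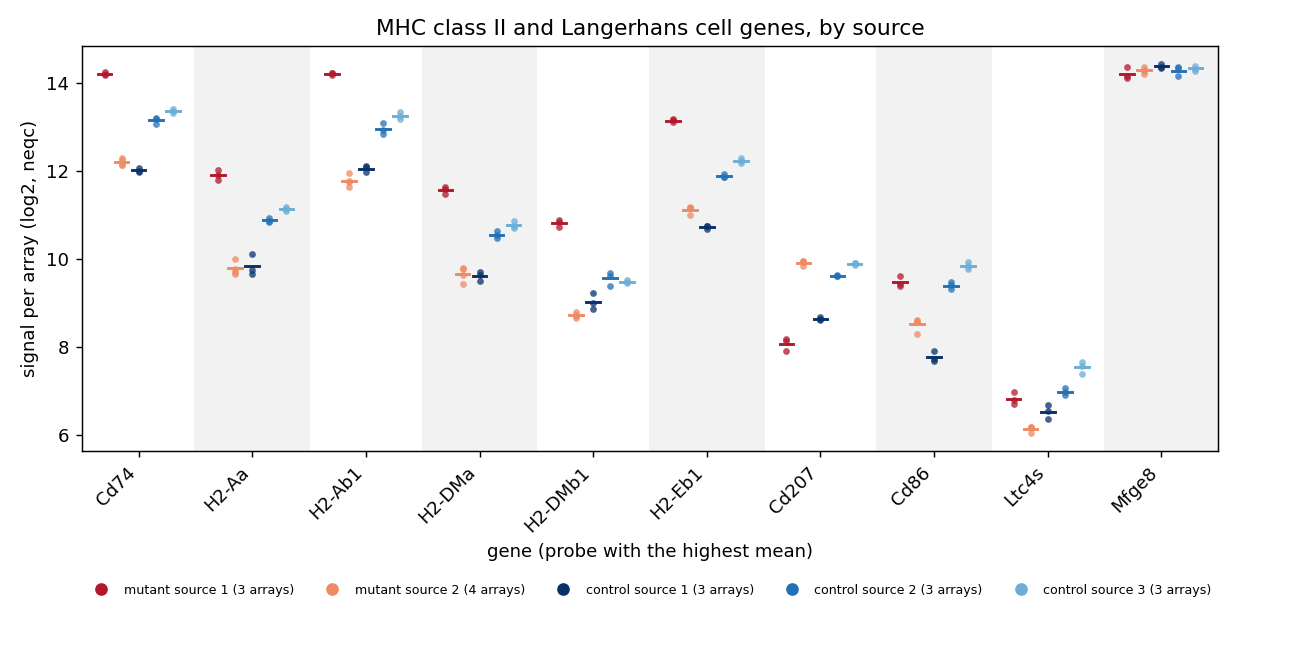
Log2 signal of each array (points) and mean of each source (bars) for 6 MHC class II genes and 4 Langerhans and dendritic genes, 1 gene per position on the x axis, with mutant sources left of control sources. For Cd74, H2-Aa and H2-Ab1 mutant source 1 is the highest and mutant source 2 is near the bottom of the control range, whereas Cd207 has mutant source 1 lowest.

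The promoters of 3 of these genes are shown because the class II genes differed together between sources. They are the 110 bases before the annotated start, 5′ to 3′ on the gene's strand, from RefSeq (GRCm38.p6), with capitals marking a match to the X box core CTNGNAAC and, after it, the Y box core TGATTGG.
H2-Aa: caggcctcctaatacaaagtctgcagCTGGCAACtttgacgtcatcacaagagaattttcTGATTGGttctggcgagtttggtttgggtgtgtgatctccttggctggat
H2-Eb1: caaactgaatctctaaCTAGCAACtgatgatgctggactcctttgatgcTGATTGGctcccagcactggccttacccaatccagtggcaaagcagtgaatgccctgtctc
H2-DMb1: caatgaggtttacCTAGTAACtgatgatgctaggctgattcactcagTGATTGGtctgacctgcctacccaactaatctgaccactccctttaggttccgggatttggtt

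These stretches lie at chr17:34287824-34287933 on the minus strand for H2-Aa, chr17:34305757-34305866 on the plus strand for H2-Eb1 and chr17:34153081-34153190 on the plus strand for H2-DMb1. The X box match began 84, 94 and 97 bases upstream of the start in H2-Aa, H2-Eb1 and H2-DMb1, the Y box match began 50, 61 and 63 bases upstream, and 26, 25 and 26 bases lay between them. Over all 32851 promoter windows of the RefSeq table, from 250 bases before to 50 after a start and on both strands, CTNGNAAC occurred in 13.2%, TGATTGG in 7.82%, and the pair with 10 to 40 bases between in 28 windows (0.0852%). Of the 30 member genes with a window, 8 held CTNGNAAC, 4 held TGATTGG and 3 held the pair, the genes printed here. H2-Ab1, Cd74 and Ciita had no window, so they were not searched. The letters of the motifs were set after the sequences had been read, and a match describes letters and not binding. H2-DMa, whose windows held no pair, also had its highest value in mutant source 1. Mutant source 1 also exceeded mutant source 2 in 14 of 15 macrophage and 4 of 4 shared leukocyte genes, and none of those searched held the pair. What part the motifs have in the differences between sources was not tested.

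Among the Langerhans and dendritic genes, mutant source 1 exceeded mutant source 2 in 2 of 4. Cd207, the langerin gene, had 8.06 and 9.91 in the mutant sources and 8.63, 9.61 and 9.88 in the control sources. Here mutant source 1 was the lowest of the 5, so the mutant sources stood in the reverse of their class II order. The second Cd207 probe repeated it with 7.08 and 8.88 in the mutant sources and 7.47, 8.62 and 8.71 in the control sources. In both probes mutant source 2 exceeded control source 3 by less than the SD between arrays of a source (0.069 and 0.216). The group differences of the 2 probes were -0.39 (SE 0.64) and -0.29, with limma adjusted p of 0.866 and 0.910. Without mutant source 1 the difference of the first was 0.54, and without mutant source 2 it was -1.31.

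Cd86, a costimulatory ligand on activated antigen presenting cells, had 9.47 and 8.51 in the mutant sources and 7.76, 9.39 and 9.84 in the control sources, a difference of -0.01 with mutant values inside the control range. Ltc4s, the leukotriene C4 synthase that Langerhans cells express, had 6.82 and 6.14 in the mutant sources and 6.52, 6.98 and 7.53 in the control sources. It differed by -0.53 (SE 0.37), at a limma adjusted p of 0.640. Mfge8, a secreted bridge between dying cells and phagocytes, had 14.21 and 14.28 in the mutant sources and 14.37, 14.27 and 14.32 in the control sources. The 95% interval of its difference, from -0.32 to 0.16, was the narrowest of the 29 member genes. The list as a whole had a median difference of -0.23, with 0 of 4 genes above 0. Mutant source 1 exceeded all control sources in 0 of 4, against 37.8% of all tested genes.

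Macrophage and monocyte genes were tested for 15 of the 21 listed. Adgre1, which encodes the F4/80 surface antigen, had 9.67 and 8.28 in the mutant sources and 7.81, 9.40 and 10.08 in the control sources. Mrc1, the mannose receptor of tissue macrophages, had 11.82 and 10.25 in the mutant sources and 9.78, 11.63 and 12.11 in the control sources. Cd163, the scavenger receptor for haemoglobin, had 9.65 and 7.79 in the mutant sources and 8.24, 10.06 and 10.79 in the control sources, and its difference of -0.97 (SE 0.90, limma adjusted p = 0.732) was the most negative of the members. In Adgre1 and Mrc1 both mutant values lay inside the control range, and in Cd163 mutant source 2 lay beneath it.

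The 3 chains of complement C1q, which macrophages supply to tissue, gave matching patterns. C1qa had 9.78 and 7.93 in the mutant sources and 7.76, 9.51 and 10.25 in the control sources. C1qb had 12.52 and 10.30 in the mutant sources and 9.84, 11.63 and 12.35 in the control sources. C1qc had 11.76 and 9.59 in the mutant sources and 9.46, 11.31 and 11.89 in the control sources. Differences were -0.32, 0.14 and -0.21, against a spread among control sources of over 2 log2 units in each chain.

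The receptors among the macrophage genes included Cd14 and the Fc receptors. Cd14, the lipopolysaccharide co-receptor, had 11.95 and 10.65 in the mutant sources and 9.77, 11.48 and 12.07 in the control sources. Fcgr3, a low-affinity immunoglobulin G receptor, had 11.09 and 8.13 in the mutant sources and 8.43, 10.14 and 10.77 in the control sources, so that the mutant sources lay on either side of all control sources. Fcgr1, the high-affinity receptor, was detected on 3 of 7 mutant and 6 of 9 control arrays and differed by 0.18. Cx3cr1, the fractalkine receptor, was detected on 3 of 7 mutant and 8 of 9 control arrays and differed by -0.14.

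Aif1, which encodes the calcium-binding protein Iba1, had 8.87 and 7.25 in the mutant sources and 6.53, 7.72 and 8.32 in the control sources. Ctss, the protease that trims the invariant chain, was detected on 6 of 7 mutant and 9 of 9 control arrays, with 8.44 and 6.27 in the mutant sources and 6.18, 6.81 and 7.35 in the control sources. Their differences of 0.54 and 0.58 had limma adjusted p of 0.819 and 0.806. Lgals3, the lectin galectin-3 that keratinocytes also make, had 14.49 and 15.25 in the mutant sources and 14.72, 14.96 and 15.05 in the control sources. It was the only one of the 15 in which mutant source 2 exceeded mutant source 1.

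Over the 15 macrophage genes the median difference was -0.04, with 7 above 0, and the smallest limma adjusted p was 0.717. Control sources ran in the order 1, 2, 3 from low to high in 14 of 15 genes, and control source 3 exceeded control source 1 by a median of 2.27. Mutant source 1 exceeded mutant source 2 in 14 of 15, by a median of 1.75. The median difference was -0.53 without mutant source 1, 0.88 without mutant source 2, -0.47 without control source 1, 0.33 without control source 3 and 0.09 without control source 2. The sign of the macrophage median therefore depended on which source was left out.

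**Figure D3:**
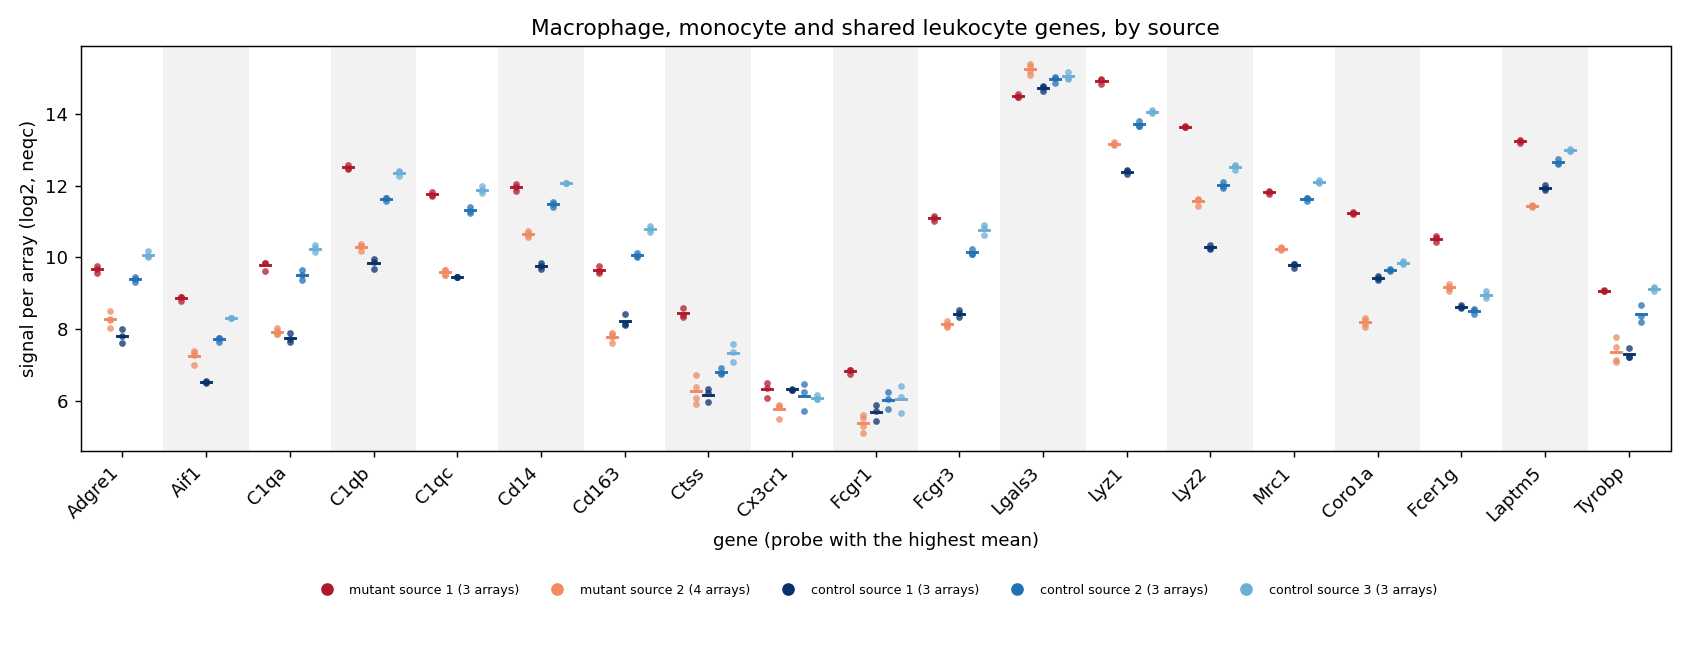
Log2 signal of each array (points) and mean of each source (bars) for 15 macrophage and monocyte genes and 4 shared leukocyte genes, 1 gene per position on the x axis, with mutant sources left of control sources. In most genes the control sources climb in the order 1, 2, 3, though not in Cx3cr1 and Fcer1g. Mutant and control sources overlap in every gene but Fcer1g.

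Shared leukocyte genes were tested for 4 of 5. Tyrobp, an adaptor that couples activating receptors, had 9.07 and 7.38 in the mutant sources and 7.31, 8.42 and 9.13 in the control sources. Laptm5, a lysosomal protein of blood cells, had 13.23 and 11.43 in the mutant sources and 11.95, 12.65 and 12.98 in the control sources. Coro1a, an actin regulator of leukocytes, had 11.24 and 8.20 in the mutant sources and 9.42, 9.65 and 9.85 in the control sources, and its 4 probes differed by 0.08 to 0.36. For Coro1a and Laptm5 the mutant sources lay on either side of all control sources. The list had a median difference of 0.01, which was -1.003 without mutant source 1 and 1.19 without mutant source 2.

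Fcer1g, the common signalling chain of Fc receptors, was the one shared leukocyte gene whose groups did not overlap. That is 1 of 4 tested (25%), higher in the mutant, against 14.1% of all tested genes. Fcer1g had 10.53 and 9.17 in the mutant sources and 8.62, 8.51 and 8.97 in the control sources. Over single arrays the mutant ran from 9.08 to 10.60 with a median of 9.26, and the control from 8.41 to 9.07 with a median of 8.61. The difference was 1.15 (SE 0.43, 95% interval 0.08 to 2.21) with a limma adjusted p of 0.386, and without mutant source 1 it was 0.47.

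Lysozyme was read by probes for Lyz1 and Lyz2, neighbouring copies of the gene for an enzyme that cuts bacterial cell walls. Lyz1 probe 1 had 14.91 and 13.17 in the mutant sources and 12.38, 13.72 and 14.06 in the control sources, a difference of 0.65 (SE 0.69, limma adjusted p = 0.771). Lyz2 probe 1 had 13.64 and 11.56 in the mutant sources and 10.28, 12.01 and 12.52 in the control sources, and Lyz2 probe 2 had 11.09 and 9.26 in the mutant sources and 8.28, 9.47 and 10.02 in the control sources. The Lyz2 differences were 1.00 (SE 0.87) and 0.92, with limma adjusted p of 0.717 and 0.683. In these 3 probes mutant source 2 lay inside the control range and the groups overlapped.

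The other 2 Lyz1 probes did not overlap between groups. Lyz1 probe 2 had 9.21 and 8.10 in the mutant sources and 5.26, 6.02 and 7.11 in the control sources, and it was detected on 7 of 7 mutant and 6 of 9 control arrays. Lyz1 probe 3 had 8.43 and 7.29 in the mutant sources and 5.08, 5.66 and 6.27 in the control sources, detected on 7 of 7 mutant and 5 of 9 control arrays. Both mutant sources lay above all control sources for both probes, as did every mutant array above every control array, since the mutant arrays began at 7.98 and 6.97 while the control arrays ended at 7.27 and 6.42. The differences were 2.52 (SE 0.62) and 2.19 (SE 0.48), with limma adjusted p of 0.270 and 0.256.

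Several settings bear on these 2 probes. Without background correction their differences were 1.44 and 1.08. On slide 1 alone they were 2.48 and 2.29, and on slide 2 alone 2.55 and 2.00. Leaving out any 1 source kept them between 1.97 and 3.08 and between 1.62 and 2.75. The sequence of the 3 Lyz1 probes was not analysed here, so whether probe 1 also reads Lyz2 was not tested.

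**Figure D4:**
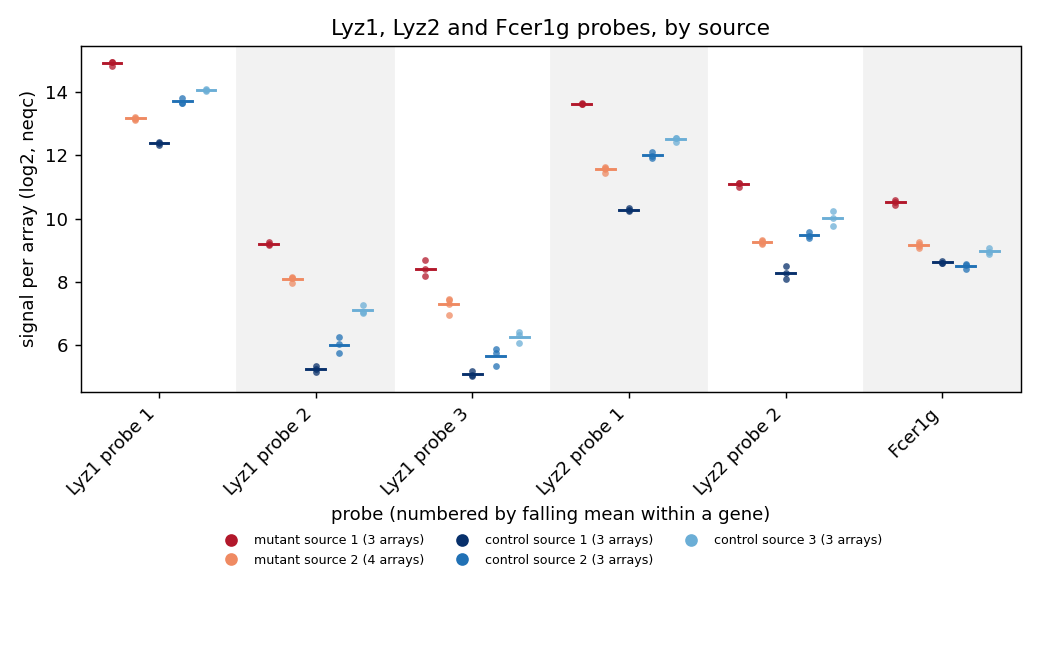
Log2 signal of each array (points) and mean of each source (bars) for the tested probes of Lyz1, Lyz2 and Fcer1g along the x axis, with mutant sources left of control sources. Both mutant sources lie above all control sources in Lyz1 probes 2 and 3 and in Fcer1g, but not in Lyz1 probe 1 or the Lyz2 probes.

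**Figure D5:**
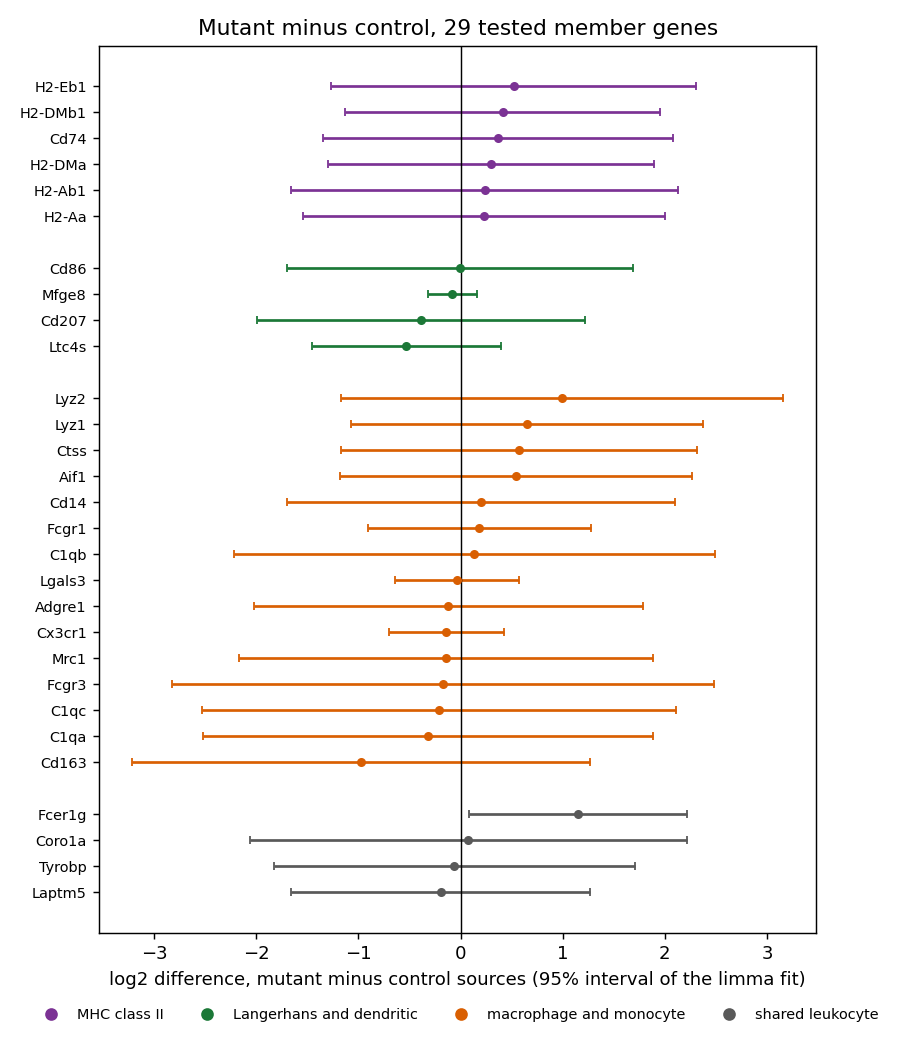
Difference between mutant and control sources (x axis, log2, point and 95% interval of the limma fit) for the 29 tested member genes, grouped by role down the y axis each shown by its brightest probe. Fcer1g has the only interval that does not reach 0, from 0.08 to 2.21, and most intervals span more than 3 log2 units.

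Genes that act with the members were taken from longer lists. Of 13 tested genes of class I presentation, 0 passed the limma threshold, and the median difference was -0.16. Sources did not overlap for 1 of the 13, higher in the mutant, which is 7.69% against 14.1% of all tested genes. That gene was Calr, a chaperone of class I assembly, with 10.97 and 10.52 in the mutant and 10.12, 10.15 and 10.30 in the control. Of 11 further class II pathway genes 0 passed, with a median of 0.14. Nfya, a subunit of the NF-Y complex that binds the Y box, had 7.59 and 7.35 in the mutant sources and 7.07, 6.73 and 7.08 in the control sources. Cst3, the protease inhibitor cystatin C, had 14.81 and 14.67 in the mutant sources and 14.92, 14.92 and 15.10 in the control sources. Mutant source 1 exceeded mutant source 2 in 4 of the 13 class I genes and in 6 of the 11 further class II pathway genes, beside 6 of 6 class II members and 53.3% of all tested genes.

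Ligands that act on macrophages and Langerhans cells were tested for 11 genes, with 0 past the threshold and a median difference of 0.15. Ccl27a, a chemokine of keratinocytes, had 13.90 and 14.50 in the mutant sources and 15.03, 15.05 and 15.06 in the control sources, with no overlap, a difference of -0.84 (SE 0.18) and a limma adjusted p of 0.256. It was the only 1 of the 11 that lay lower without overlap (9.09%), against 15.3% of all tested genes. Il34, the keratinocyte cytokine that maintains Langerhans cells, had 8.17 and 9.69 in the mutant sources and 8.95, 9.61 and 10.09 in the control sources. Ccl2, a monocyte attractant, had 8.89 and 11.62 in the mutant sources and 6.55, 8.32 and 8.98 in the control sources, and Csf1, the macrophage growth factor, had 7.45 and 9.67 in the mutant sources and 6.77, 7.43 and 7.88 in the control sources. For Ccl2, Csf1 and Il34 mutant source 2 was the higher of the mutant sources, as for Cd207, but these 3 were picked as examples after their values were seen. Over the whole ligand list mutant source 1 was the higher in 5 of 11, Ccl19, Ccl8 and Tgfb1 among them, against 53.3% of all tested genes.

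Among 37 further macrophage and dendritic genes, 0 passed the threshold, the median difference was -0.13, and the sources did not overlap for 4, all lower in the mutant. That is 10.8% of the list, against 15.3% of all tested genes that lay lower without overlap. Apoe, a lipid carrier made by macrophages and other skin cells, had 14.41 and 14.34 in the mutant sources and 14.99, 15.02 and 15.14 in the control sources, a difference of -0.67 (SE 0.10, limma adjusted p = 0.198). Mutant source 1 exceeded mutant source 2 in 28 of these 37 genes.

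Markers of other cell types also differed between the same sources, and their part in the results above was not tested. Relative to the control mean, mast cell genes (5 tested of 8 listed) had medians of -0.91 and -0.32 in the mutant sources and -1.48, 0.40 and 1.08 in the control sources, the same control order as the macrophage genes. T cell genes (7 of 10) ran the other way in the control group, at -1.70 and -3.17 in the mutant sources and 0.84, -0.10 and -0.83 in the control sources, and 6 of 7 had both mutant sources below all control sources, with 0 past the threshold. Suprabasal keratinocyte genes (4 of 6) stood at -0.84 and 1.21 in the mutant sources and -0.68, 0.16 and 0.46 in the control sources. Endothelial genes (6 of 8) stood at -1.02 and -0.91 in the mutant sources and -0.47, -0.10 and 0.57 in the control sources, and 5 of 6 had both mutant sources below all control sources, with 0 past the threshold; 15.3% of all tested genes lay so. The median of the 7 basal keratinocyte genes stayed between -0.09 and 0.07 in all 5. Median differences were -0.34 for 7 dermal fibroblast genes, -1.06 for 4 melanocyte genes, 0.20 for 3 B cell genes, -0.08 for 3 skeletal muscle genes and -0.49 for 2 adipocyte genes.

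The 4 tested neutrophil genes had a median difference of 1.68. S100a9, a calprotectin subunit that keratinocytes also make, had 11.70 and 10.89 in the mutant sources and 5.20, 5.93 and 6.26 in the control sources, and it was detected on 7 of 7 mutant but only 5 of 9 control arrays, so its control level lay near background. The fitted difference was 5.49 (SE 0.41) at a limma adjusted p of 0.0470. No probe passed on either slide alone, without background correction, with an offset of 50, with the authors' table, with 75th percentile scaling, without any 1 source or without control replicate 2, 4 or 6, so this call is lost in each of those settings. S100a8, its partner subunit, had 13.42 and 12.14 in the mutant sources and 10.08, 9.69 and 9.26 in the control sources, a difference of 3.10. Camp, a granule peptide of neutrophils, differed by -0.66, and its sources did not overlap either. It was detected on 3 of 7 mutant and 8 of 9 control arrays, so its mutant level lay near background.

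The Y-linked gene Eif2s3y stood at 9.14 and 4.78 in the mutant sources and 10.74, 10.47 and 10.41 in the control sources. It was detected on 3 of 7 mutant and 9 of 9 control arrays, and the value of mutant source 2 lay at background. The mutant sources thus also differed from each other in this gene. Whether the sources differ in the sex of the animals, and what part that has in the differences between mutant sources above, was not tested.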

How the data were processed

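For 16 Illumina bead arrays the authors deposited raw probe intensities, each with its detection p-value. GenomeStudio is the tool that the submitters' processing notes name, without a version. The intensities of a second table by the authors differ from a quantile normalization of the raw ones by a median of 0.00648%, and that table served as an alternative. The genome build behind the probes was not given in the sources used here.

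Processing used neqc of limma 3.58.1 in R 4.3.3 (offset 16, negative controls derived from detection p-values), which also quantile-normalizes and takes log2. Tested were the 14504 of 25697 probes that reached a detection p below 0.05 on at least 7 arrays. Arrays of a labelled group that correlated above 0.99 were averaged as 1 source. The 2 mutant and 3 control sources were compared by lmFit and trended eBayes, on 3 residual plus 2.53 prior degrees of freedom, and p-values were adjusted by Benjamini-Hochberg over all tested probes, with a threshold of 0.05. The fit was tested on simulated data, where the check covered the average size of the differences that were set, not missed or false calls. Probe symbols came from the platform annotation.

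The members, the lists and the joining of arrays were chosen with earlier results of these data known. Named genes were all class II and Langerhans members, the macrophage and shared leukocyte members detected on at least 14 arrays or without overlap of sources, and, of each other list, the genes with the largest difference in either direction among those without overlap. Il34, Ccl2, Csf1, Ccl19, Ccl8, Tgfb1 and S100a8 fall outside that rule and were chosen after their values were seen. Fcgr1 and Cx3cr1, detected on fewer arrays, are given by their difference. Lists of other cell types are given by their medians, and only neutrophil genes among them are named. Precision is limited by how few sources there are. Alternatives covered background correction, scaling, the filter, slide, blocks, weights and leaving out each array or source.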

Additional observations from a re-analysis of the deposited data

How the results depend on the processing

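The count of tested probes past the limma threshold, 8 in the fit to sources, was 0 without background correction, with an offset of 50, with the authors' table, with 75th percentile scaling, with probes detected on all 16 arrays, on slide 1 alone and on slide 2 alone, 1 with cyclic loess, 2 with array weights and 4 without the filter on dim probes. It was 4914 for 16 separate arrays, 883 with a random block for source and 3395 with the title number as a replicate block, and between 0 and 8 when 1 array or 1 source was left out. Member probes past the threshold, 0 of 45 in the fit to sources, were also 0 whenever 1 array or source was left out. They numbered 4 of 45 for 16 separate arrays (2 of Lyz1, Fcer1g and Ltc4s), where 4914 of all 14504 tested probes passed. With the random block they numbered 3 of 45, where 883 of 14504 passed, and with the replicate block 3 of 45, where 3395 of 14504 passed. All 3 of these fits take their degrees of freedom from nearly interchangeable arrays of 5 sources, so their p-values overstate the replication. The title numbers do not pair the arrays: over 7 pairs the correlation of deviations ran from -0.386 to 0.418, with 3 above 0.1. Leaving out 1 array or source moved the median difference of class II members between -0.65 and 1.41, of Langerhans members between -0.69 and -0.11, of macrophage members between -0.53 and 0.88 and of shared leukocyte members between -1.003 and 1.19. Of the 45 member probes, 27 changed sign without mutant source 1, 11 without mutant source 2, and 14, 7 and 10 without control sources 1, 2 and 3. The other settings changed the sign of at most 7. With 2 mutant sources, a member with a spread between sources near 1 log2 unit cannot be placed more closely than the intervals given.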
